A study of Mus musculus with 17 samples.

Results

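Type I interferon-stimulated genes are the genes that cells switch on when interferon alpha or beta binds its receptor, and 43 of them were followed through mouse lungs with and without Clic4, the gene of chloride intracellular channel 4. They were taken by symbol from a fixed list, out of 54146 genes in the files, and all 43 had enough counts to be among the 19557 genes tested. RNA sequencing covered whole lungs at 2 time points, day 14 and day 0, from mice labelled knockout for Clic4 (KO) and from wild-type mice (WT). The series asks what the host's Clic4 does in metastasis of mouse mammary tumours.

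There were 5 KO and 6 WT libraries at day 14, from mice aged 8 weeks, and 2 KO and 4 WT libraries at day 0, from mice aged 6 weeks. Day and age therefore changed together. All libraries carry the strain label FVB/6DT1, in which 6DT1 names a mammary tumour line of mice, and all are labelled lung. The labels do not say what was done between the days, how the KO was made, or which animal gave which library, and the series' own design text gives other group sizes than the sample labels, which were followed. Library numbers below were given in accession order and are names only. P-values measure the spread between these libraries, which may be technical.

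The libraries held 20607811 to 35743830 counts. Clic4 had 302 to 399 CPM (counts scaled to library size) in KO libraries at day 14, against 927 to 1281 CPM in WT libraries. Its day 0 values were 324 and 328 CPM in KO libraries and 925 to 953 CPM in WT libraries, so KO libraries all lay below WT libraries for the gene's total, which was not lost. The labels do not say which part of the gene was deleted, and a total over the gene cannot check that part. Of the genes that define lung tissue, the alveolar type 2 list summed to 15660 to 22480 CPM, and every gene on the lists of lung and blood cell markers had counts.

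Interferons alpha and beta signal through a receptor made of Ifnar1 and Ifnar2, which activates the kinases Jak1 and Tyk2. Their signal leads to the assembly of ISGF3, a factor that contains Stat2 and Irf9 and binds a DNA element called the interferon-stimulated response element. The genes it turns on sense foreign nucleic acid, block virus replication and feed back on the pathway, and lung cells of most types can make this response. In bulk lung RNA, a change in the number of responding cells and a change in RNA per cell cannot be told apart.

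The response element shows in the DNA ahead of several of these genes. Promoters of 30 of the 43 genes could be matched by symbol in the RefSeq table on GRCm38.p6; Usp18, Dhx58, Zbp1, Oas1b, Oas2, Mx1, Mx2, Parp9, Parp14, Phf11d, Ifi27l2a, Rtp4 and Tor3a were not among them. A core of the element, GAAANNGAAA or its reverse complement TTTCNNTTTC, was searched on both strands in the 250 bases before the start site. It was found in 15 of the 30 genes and in 936 of 27025 genes of the whole table, 3.46%. The 5 sequences below were chosen because these genes stand for the modifier, IFIT, OAS and viperin classes described next, and because each holds at least 1 match. They run 5′ to 3′ along the gene's own strand, with every match in capitals. The windows are chr4:156200819-156201068 (minus strand) for Isg15, chr19:34640639-34640888 (plus) for Ifit1, chr19:34583279-34583528 (plus) for Ifit3, chr5:120907526-120907775 (minus) for Oas1a and chr12:26456453-26456702 (minus) for Rsad2.
Isg15: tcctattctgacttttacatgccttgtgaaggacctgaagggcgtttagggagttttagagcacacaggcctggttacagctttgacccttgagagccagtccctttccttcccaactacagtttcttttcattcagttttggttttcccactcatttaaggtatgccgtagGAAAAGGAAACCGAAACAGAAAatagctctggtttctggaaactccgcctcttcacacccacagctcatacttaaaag
Ifit1: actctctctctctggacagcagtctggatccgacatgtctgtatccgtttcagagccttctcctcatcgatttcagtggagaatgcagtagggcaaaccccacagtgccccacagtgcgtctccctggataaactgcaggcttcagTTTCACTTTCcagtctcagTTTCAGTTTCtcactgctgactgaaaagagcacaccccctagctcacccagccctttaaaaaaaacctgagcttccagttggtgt
Ifit3: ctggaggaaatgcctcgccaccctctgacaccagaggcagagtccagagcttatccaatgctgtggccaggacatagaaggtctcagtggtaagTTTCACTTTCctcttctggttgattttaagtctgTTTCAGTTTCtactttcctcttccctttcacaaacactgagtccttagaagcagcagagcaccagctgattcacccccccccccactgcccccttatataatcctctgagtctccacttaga
Oas1a: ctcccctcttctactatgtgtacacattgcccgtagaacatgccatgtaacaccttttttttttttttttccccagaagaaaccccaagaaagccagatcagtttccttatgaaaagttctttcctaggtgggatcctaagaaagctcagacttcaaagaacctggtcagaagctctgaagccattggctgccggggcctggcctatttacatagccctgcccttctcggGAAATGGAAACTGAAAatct
Rsad2: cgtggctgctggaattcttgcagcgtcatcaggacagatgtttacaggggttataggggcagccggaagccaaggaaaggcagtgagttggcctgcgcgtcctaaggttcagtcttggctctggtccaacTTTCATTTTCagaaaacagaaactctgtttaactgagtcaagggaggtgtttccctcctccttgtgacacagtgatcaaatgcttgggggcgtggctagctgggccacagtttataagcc
Isg15 held 3 matches that overlap end to end and Oas1a held 2 that overlap. Ifit1 and Ifit3 held 2 separate matches each, all in the reverse orientation, and Rsad2 held 1. The 15 genes with a match spread 2.60-fold to 44.5-fold between their lowest and highest library, with a median of 11.6-fold. The 15 without one spread 2.93-fold to 35.3-fold, with a median of 6.84-fold, so the ranges overlapped. A match is a stretch of letters and not a measured binding site.

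The widest differences in these genes lay between single libraries and not between the groups. KO day 14 library 2 and WT day 14 library 5 were the highest 2 of the 17 libraries for 43 of 43 genes, an order that 2.3% of all genes tested shared. KO day 14 library 2 was the highest for 23 genes (7.74% of all genes) and WT day 14 library 5 for the other 20 (6.19%). These libraries were singled out after their values were seen, and they carry different genotypes. They held 24463846 and 25981250 counts, at the low end of the series. Of the other libraries, only KO day 14 library 5 held fewer, with 20607811.

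Against the median of the other 4 KO libraries at day 14, KO day 14 library 2 was 2.12-fold to 22.7-fold higher over the 43 genes, with a median of 5.59-fold. WT day 14 library 5 was 2.04-fold to 12.6-fold higher than the median of the other 5 WT libraries at day 14, with a median of 4.53-fold. The median over all genes was 0.996 and 1.0 in the same ratios, and 2.73 and 2.77% of all genes lay above 2. Both libraries together stood at least 1 log2 unit above each of the other 15 for 51 genes, 0.261% of those tested. Of these 51 genes, 22 were among the 43 and 13 more were on the lists of other interferon pathway genes.

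At day 0 the order was led by WT library 4. It was the highest of the 6 day 0 libraries for 43 of 43 genes (18.1% of all genes) and the third highest of all 17 libraries for 41 genes (6.69% of all genes). The exceptions were Oas3, where WT day 14 library 3 took that place, and Rsad2, where KO day 14 library 5 did. KO day 0 library 2 was at the other end, the lowest of all 17 for 34 genes (8.46% of all genes) and of the 6 day 0 libraries for 39 (21.2%). WT day 0 library 4 was 1.14-fold to 5.55-fold above the median of the other WT libraries at day 0, with 25 genes above 2-fold (2.48% of all genes), and KO day 0 library 2 stood at 0.393 to 1.11 times the level of the other KO library.

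A score, the mean over the 43 genes of log2 CPM minus its mean over the 17 libraries, gives the same order. It was 2.11 in KO day 14 library 2, 2.12 in WT day 14 library 5 and 0.92 in WT day 0 library 4. The other KO libraries at day 14 lay close together, at -0.43, -0.39, -0.44 and -0.49. The other WT libraries at day 14 were spread wider, at -0.77, -0.43, 0.31, -0.15 and 0.25. At day 0, KO libraries scored -0.49 and -1.07, and the other WT libraries scored -0.46, -0.21 and -0.41.

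**Figure D1:**
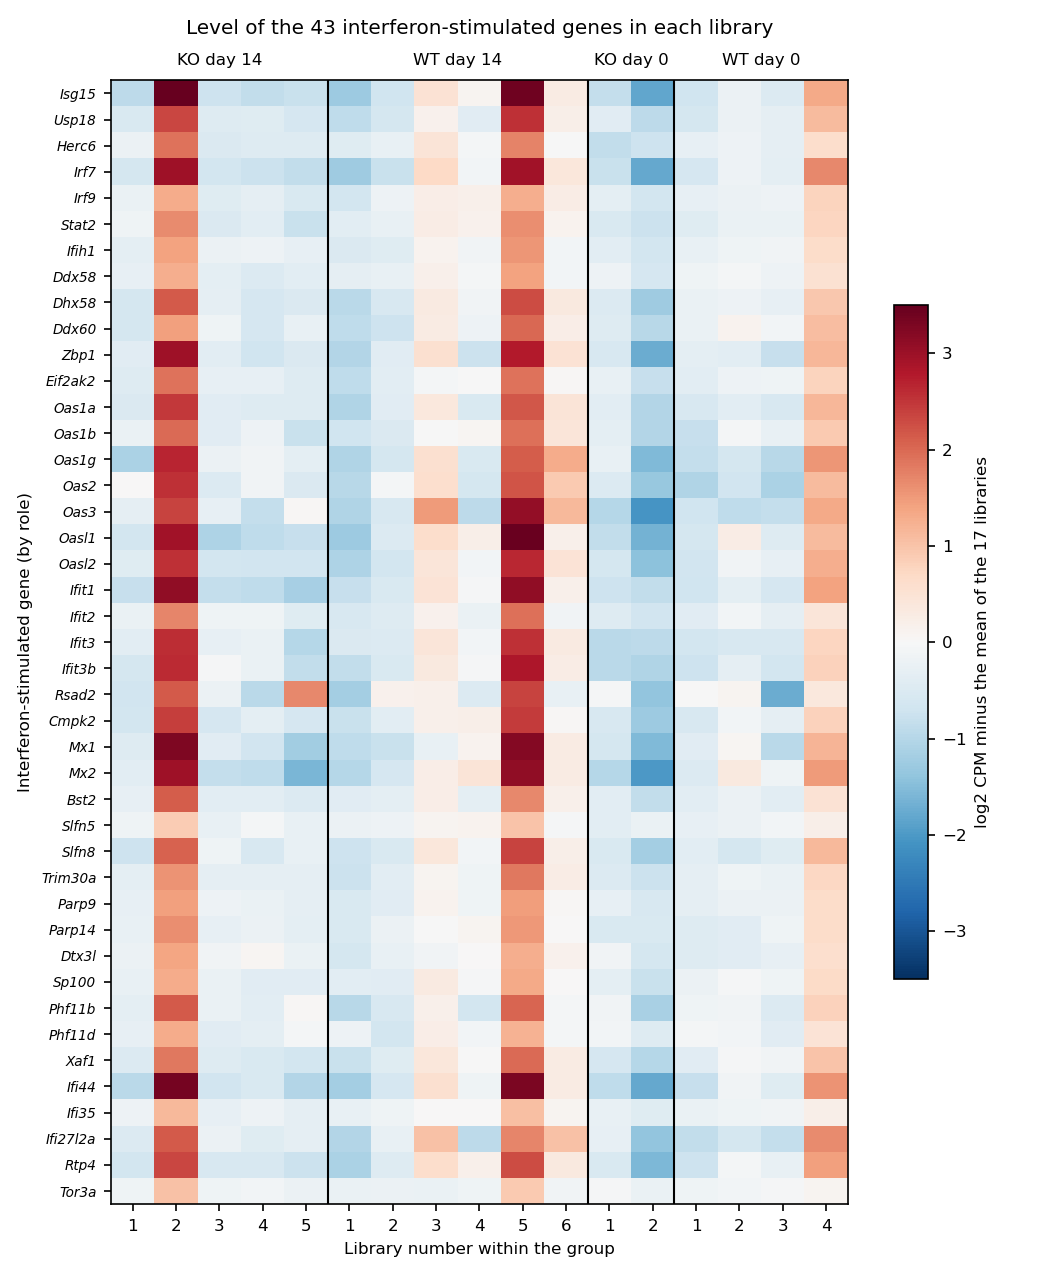
Each row is 1 of the 43 interferon-stimulated genes, ordered by role, and each column 1 of the 17 libraries, grouped by genotype and day; colour is log2 CPM minus the gene's mean over all libraries. KO day 14 library 2 and WT day 14 library 5 are red in every row, WT day 0 library 4 is paler red in nearly all, and the Rsad2 row alone shows KO day 14 library 5 high.

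The ubiquitin-like modifier Isg15, which is joined to other proteins during the response, spread most of all 43 genes, 44.5-fold from its lowest to its highest library. At day 14 Isg15 had 8.18, 197, 9.36, 8.36 and 8.95 CPM in KO libraries, against a lowest of 6.32, a median of 17.6 and a highest of 162 CPM in WT libraries. In day 0 lungs it had 8.61 and 4.36 CPM in KO libraries, and 9.39, 13.3, 11.0 and 38.7 CPM in WT libraries. The other 4 KO libraries at day 14 lay between 8.18 and 9.36 CPM, and library 2 stood 22.7-fold above their median. The KO and WT libraries overlapped at day 14 and did not at day 0. Usp18, the protease that removes Isg15 and also dampens signalling at the receptor, spread 11.0-fold. Herc6, the ligase that attaches Isg15 in mice, spread 6.84-fold.

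Among the transcription factors, Irf7 moved far more than its partners. Irf7, which drives the genes of interferon alpha, had 26.6, 317, 26.1, 24.2 and 22.3 CPM in KO libraries at day 14, against a lowest of 17.3, a median of 46.2 and a highest of 312 CPM in WT libraries. At day 0 it had 24.0 and 11.7 CPM in KO libraries, and 27.1, 36.3, 32.1 and 131 CPM in WT libraries. WT day 0 library 4 stood between the high day 14 libraries and the rest. Irf7 spread 27.0-fold, against 5.41-fold for Stat2 and 3.84-fold for Irf9, the DNA-binding partners within ISGF3. Per kilobase, the mean level over all libraries was 43.7 FPKM (fragments scaled to gene length and library size) for Irf7. It was 38.5 FPKM for Stat2 and 39.1 FPKM for Irf9. The Irf7 mean included 192.4 FPKM in KO day 14 library 2 and 194.3 FPKM in WT day 14 library 5. By group median, Irf7 was the lowest of the 3 genes in every group. In WT libraries at day 0 the medians were 22.27 FPKM for Irf7, 29.71 FPKM for Stat2 and 31.1 FPKM for Irf9.

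The sensors of foreign RNA and DNA followed the same libraries with unequal reach. Ddx58, which encodes RIG-I, a sensor of RNA ends, had 78.9, 233, 76.4, 69.0 and 75.0 CPM in KO libraries at day 14, against a lowest of 77.6, a median of 91.0 and a highest of 255 CPM in WT libraries. Its day 0 values were 85.4 and 64.6 CPM in KO libraries, and 87.2, 91.8, 85.6 and 141 CPM in WT libraries. At day 14, 3 of the 5 KO values lay below every WT value and 1 KO value lay above all but 1 WT value. Zbp1, a sensor of Z-form nucleic acid that can trigger cell death, had 9.89, 103, 10.2, 8.07 and 9.15 CPM in KO libraries at day 14, against a lowest of 6.44, a median of 14.3 and a highest of 90.2 CPM in WT libraries. In day 0 lungs it had 8.86 and 3.91 CPM in KO libraries, and 10.4, 10.2, 7.48 and 29.2 CPM in WT libraries. Zbp1 spread 25.9-fold and Ddx58 3.95-fold, the ends of the range for the 6 sensors. Ifih1 (MDA5, a sensor of long double-stranded RNA) spread 4.57-fold, Dhx58 (LGP2, its regulator) 11.4-fold, the helicase Ddx60 7.90-fold, and Eif2ak2 (PKR, the kinase that halts translation on double-stranded RNA) 6.95-fold.

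The OAS genes encode enzymes that make 2-5A, the messenger that activates RNase L, together with related proteins. As a family they spread 8.09-fold to 34.6-fold, with a median of 16.7-fold over 7 genes. Oas3 had 6.501, 41.8, 6.55, 4.504 and 8.36 CPM in KO libraries at day 14, against a lowest of 3.83, a median of 11.6 and a highest of 67.9 CPM in WT libraries. At day 0 it had 4.02 and 1.90 CPM in KO libraries, and 4.95, 4.35, 4.47 and 20.4 CPM in WT libraries. Oas3 was among the 20 genes highest in WT day 14 library 5, with KO day 14 library 2 at -0.70 log2 units relative to it, and the lower of these libraries was still 0.86 log2 units above the next. Oasl2 had 70.9, 556, 61.1, 59.1 and 59.3 CPM in KO libraries at day 14, against a lowest of 45.0, a median of 108 and a highest of 587 CPM in WT libraries. Its day 0 values were 62.2 and 35.2 CPM in KO libraries, and 59.7, 87.0, 78.4 and 227 CPM in WT libraries. Oasl2 was the most abundant OAS gene per kilobase, with a mean of 78.9 FPKM, and Oas3 the least, with 3.20 FPKM. Oas1a, Oas1b and Oas1g are near-identical in part and the counting may have split their reads, so their single values are uncertain. The 3 genes spread 11.4-fold, 8.09-fold and 18.2-fold. Oas1b is classed as a polymorphic pseudogene in the GENCODE M21 annotation, so its RNA does not show that a working enzyme was made. Oas2 and Oas3 lie 3244 bases apart on chromosome 5, and Oas2 spread 14.6-fold.

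The IFIT genes, whose proteins bind foreign RNA, sit in a row on chromosome 19. Ifit1 had 18.3, 275, 17.7, 17.2 and 14.1 CPM in KO libraries at day 14, against a lowest of 18.2, a median of 33.4 and a highest of 276 CPM in WT libraries. In day 0 lungs it had 19.1 and 17.5 CPM in KO libraries, and 19.5, 25.3, 21.1 and 84.98 CPM in WT libraries. The high KO and the high WT library were level for this gene, and the other KO libraries lay at 18.3 CPM or below. Ifit3 had 80.7, 626, 86.7, 88.6 and 52.1 CPM in KO libraries at day 14, against a lowest of 73.8, a median of 114 and a highest of 619.7 CPM in WT libraries. At day 0 it had 54.5 and 56.0 CPM in KO libraries, and 66.7, 71.2, 71.4 and 177 CPM in WT libraries. Both genes kept every KO library below every WT library at day 0, an order found for 23 of the 43 genes and for 9.12% of all genes. Ifit3 and Ifit3b are near-identical copies 19238 bases apart, and reads may be shared between them. Ifit2 spread 6.03-fold, the least of the family.

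**Figure D2:**
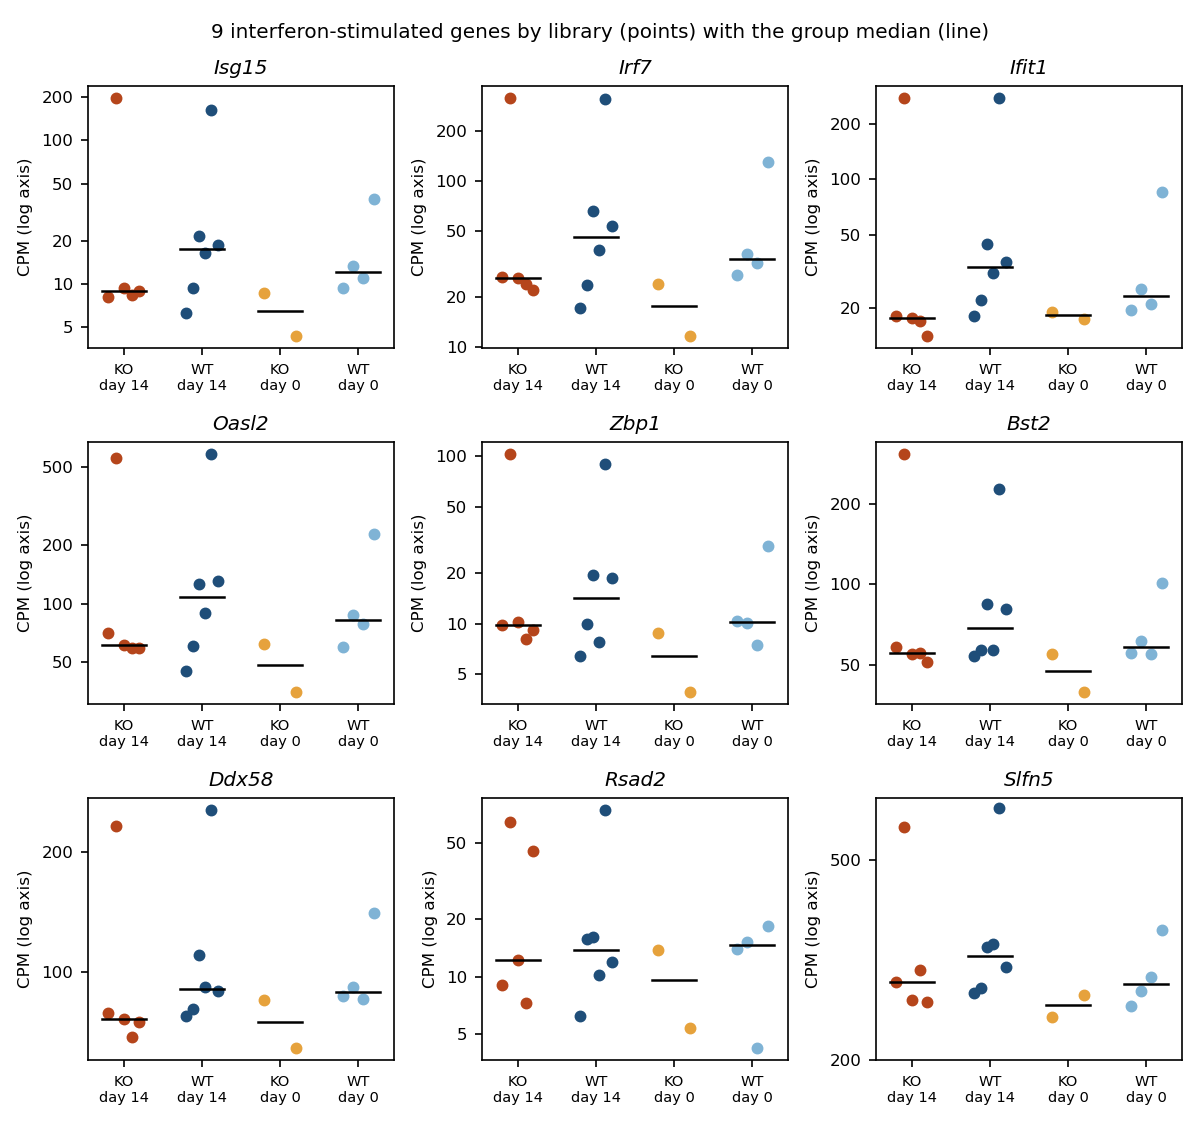
CPM of 9 interferon-stimulated genes on log axes, 1 point per library and a line at the group median, with the groups KO day 14, WT day 14, KO day 0 and WT day 0 from left to right. In each panel 1 KO and 1 WT library at day 14 lie far above their groups, except that Rsad2 has a further high KO library at 45.4 CPM.

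The antiviral restriction factors ran with the rest, with 1 exception. Mx2, a dynamin-like GTPase, had 8.53, 86.5, 6.14, 5.91 and 3.56 CPM in KO libraries at day 14, against a lowest of 5.51, a median of 13.2 and a highest of 94.7 CPM in WT libraries. Its day 0 values were 5.51 and 2.72 CPM in KO libraries, and 7.84, 14.0, 9.89 and 31.2 CPM in WT libraries. The groups overlapped at day 14 and not at day 0. The GENCODE M21 annotation classes Mx2 as a polymorphic pseudogene, so its RNA does not show that a working protein was made. Bst2 (tetherin), which holds budding virus at the cell surface, had 58.4, 308, 55.0, 55.3 and 51.3 CPM in KO libraries at day 14, against a lowest of 53.7, a median of 68.8 and a highest of 227 CPM in WT libraries. In day 0 lungs it had 54.9 and 39.5 CPM in KO libraries, and 55.4, 61.2, 54.7 and 101 CPM in WT libraries. Bst2 was the second most abundant of the 43 genes per kilobase, with a mean of 140.0 FPKM, and outside the 3 high libraries it lay between 39.5 and 84.2 CPM. Slfn5, of the Schlafen family, spread 2.60-fold and Slfn8 11.6-fold. Mx1, the other Mx GTPase, spread 27.7-fold, and Trim30a, which dampens innate signalling in mice, 6.06-fold.

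Rsad2 (viperin), which makes a chain-terminating nucleotide, was the exception and was chosen for description after its values were seen. It had 9.01, 63.7, 12.2, 7.31 and 45.4 CPM in KO libraries at day 14, against a lowest of 6.20, a median of 13.8 and a highest of 74.1 CPM in WT libraries. At day 0 it had 13.7 and 5.40 CPM in KO libraries, and 14.0, 15.1, 4.23 and 18.3 CPM in WT libraries. The raised value in KO day 14 library 5 was not seen in Cmpk2, the mitochondrial nucleotide kinase gene 12751 bases away on the opposite strand, which had 17.1 CPM there against 16.4, 137, 16.97 and 19.96 CPM in the other KO libraries at day 14. The same library had the highest sums of all 17 for 7 neutrophil markers, 598 CPM, and for 3 red cell markers, 29790 CPM. WT day 14 library 6, with the next highest neutrophil sum of 539.5 CPM, had 11.9 CPM of Rsad2. The part of these cells in the Rsad2 value was not tested.

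Parp9, Parp14 and Dtx3l act in protein ADP-ribosylation, with Dtx3l the ubiquitin ligase partner of Parp9. They were the evenest group, spreading 3.99-fold to 4.46-fold. Parp9 had 50.3, 167, 54.1, 52.1 and 49.4 CPM in KO libraries at day 14, against a lowest of 42.7, a median of 59.7 and a highest of 169 CPM in WT libraries. Its day 0 values were 50.8 and 41.5 CPM in KO libraries, and 49.1, 53.6, 53.1 and 96.9 CPM in WT libraries. Its KO and WT libraries overlapped on both days. Parp14 had 124, 452, 120.3, 128 and 117 CPM in KO libraries at day 14, against a lowest of 102, a median of 147 and a highest of 421 CPM in WT libraries. In day 0 lungs it had 101 and 101 CPM in KO libraries, and 108, 112, 134 and 228 CPM in WT libraries, with no overlap. Dtx3l and Parp9 overlap by 682 bases on opposite strands of chromosome 16, and the sources used here do not say whether the counting used strand.

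The remaining 9 genes ran from 2.42-fold to 35.3-fold, with Ifi44 the widest and Tor3a the flattest. Ifi44, a cytoplasmic protein that binds GTP, had 8.85, 174, 10.6, 11.7 and 8.36 CPM in KO libraries at day 14, against a lowest of 7.46, a median of 18.02 and a highest of 165 CPM in WT libraries. At day 0 it had 9.18 and 4.88 CPM in KO libraries, and 9.73, 15.5, 12.7 and 50.8 CPM in WT libraries. It spread 35.3-fold, next to Isg15. Ifi27l2a, a small hydrophobic protein, had 38.6, 239.8, 46.8, 39.9 and 43.6 CPM in KO libraries at day 14, against a lowest of 26.6, a median of 77.5 and a highest of 175 CPM in WT libraries. Its day 0 values were 44.5 and 20.7 CPM in KO libraries, and 29.5, 34.97, 30.4 and 169 CPM in WT libraries. Ifi27l2a was the most abundant of the 43 genes per kilobase, with a mean of 258 FPKM, and the gene for which WT day 0 library 4 came nearest to the 2 high day 14 libraries, 0.05 log2 units below the lower of them. Tor3a, an ATPase of the endoplasmic reticulum, spread 2.42-fold, the least of the 43, followed by Slfn5 and then Ifi35 at 2.93-fold. Sp100 of nuclear bodies, Xaf1, which opposes an inhibitor of cell death, and Rtp4, a receptor transporter, spread 4.23-fold, 7.82-fold and 15-fold. Phf11b spread 9.65-fold and Phf11d, the least abundant gene at a mean of 1.15 FPKM, 3.79-fold. The files give the symbol Phf11d to ENSMUSG00000091144, which the GENCODE M21 annotation calls Phf11c, and the gene that annotation calls Phf11d has the symbol Phf11c in the files. That gene had 195 CPM in KO day 14 library 2 and 182 CPM in WT day 14 library 5, against 20.4 to 73.5 CPM in the other 15 libraries.

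The genes of type I and lambda interferons were at or near 0 in these lungs. None of 20 such genes had enough counts to be tested, and 16 of them had no count in any library. The gene of interferon gamma was not on this list and was not examined. Ifnb1, Ifnab, Ifnk and Ifnz had at most 3 counts in a library. KO day 14 library 2 held 1 count of them in all, for Ifnz, and WT day 14 library 5 held 0.

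The receptor was flat where its targets were not. Ifnar1 lay between 76.7 and 96.7 CPM in all 17 libraries, with 91.5 CPM in KO day 14 library 2 and 78.5 CPM in WT day 14 library 5. Ifnar2 lay between 72.0 and 92.0 CPM, with 92.0 and 81.1 CPM in these libraries. Irf1, a transcription factor of the receptor and signalling list, was highest in the same 2 libraries.

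Other induced genes shared the order as well. Of 45 further interferon-induced genes, 40 were highest in the same 2 libraries, among them Ifitm3, which blocks virus entry, with 904.5 CPM in KO day 14 library 2 and 756 CPM in WT day 14 library 5 against 212 to 422 CPM elsewhere. The 5 without this order were Ifi209, Epsti1, Ifi27, Ms4a4c and Cxcl10. Of 14 genes known for their response to interferon gamma, 12 shared it and Ciita and Cxcl9 did not. Ciita, the master regulator of MHC class II genes, had 64.3 CPM in KO day 14 library 2 and 32.1 CPM in WT day 14 library 5. A list of 18 genes held sensors and adaptors that act upstream of interferon, with regulators of this sensing. Of these, 6 shared the order: the sensors Mb21d1, Tlr3 and Tlr9 and the regulators Trex1, Samhd1 and Adar. Mavs, Irf3 and Tmem173 were among the 12 that did not. Adar stands on 2 of these lists.

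No cell type marker shared this order. None of the genes on 14 marker lists had its highest values in KO day 14 library 2 and WT day 14 library 5. Neutrophil markers summed to 51.6 CPM in KO day 14 library 2, the lowest of all libraries, and to 359.8 CPM in WT day 14 library 5. Markers of plasmacytoid dendritic cells, known as strong producers of interferon alpha, summed to 23.2 and 40.2 CPM in these libraries, inside their range of 22.8 to 42.1 CPM over all 17. Monocyte markers summed to 131 and 144.5 CPM, within 49.2 to 179.6 CPM. Heart muscle markers were highest in WT day 14 library 5, at 1789 CPM, against 863 CPM in KO day 14 library 2.

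**Figure D3:**
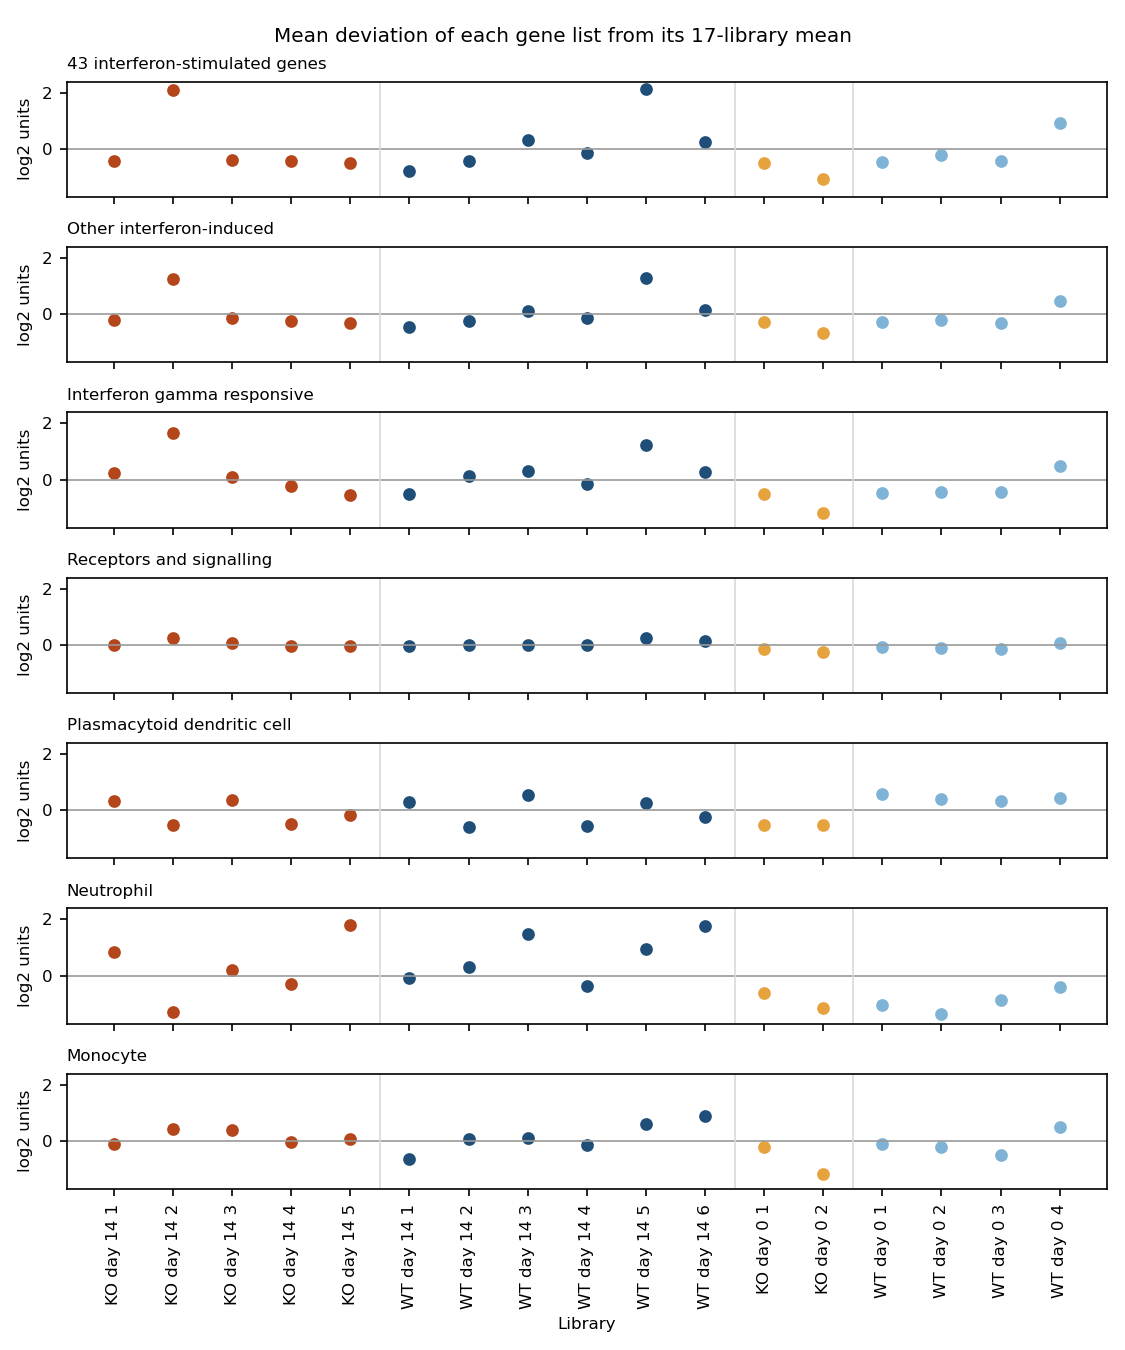
For 7 gene lists, the mean over genes of log2 CPM minus its 17-library mean, in log2 units, with 1 point per library and the groups KO day 14, WT day 14, KO day 0 and WT day 0 from left to right. The peaks at KO day 14 library 2 and WT day 14 library 5 appear in the 3 lists of interferon-induced genes and not in those of plasmacytoid dendritic cells or neutrophils. The receptor and signalling list was also highest in these libraries, with small values of 0.25 and 0.24. The monocyte list stood at 0.43 and 0.62 in them, below 0.88 in WT day 14 library 6.

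With the libraries described, the group contrasts can be read. At day 14, KO and WT lungs did not differ detectably in any of the 43 genes. edgeR's quasi-likelihood test called 0 of 43 (0.107% of all genes), and 0 had an unadjusted p under 0.05 (8.95% of all genes). DESeq2 and limma-voom also called 0, with 0 under 0.05. The median log2 fold change was -0.02, with 16 genes higher in KO (50.3% of all genes) and 27 lower (49.7%), and in 0 of 43 genes did every KO library lie below every WT library (0.394% of all genes). Isg15 averaged 46.3 ± 84.0 CPM in KO libraries and 39.1 ± 60.5 CPM in WT libraries (SD, n = 5 and 6), a log2 fold change of 0.25 ± 1.06 (SE; 95% interval -1.83 to 2.33). Oas3 had the lowest value, -0.59 ± 0.86 (SE; 95% interval -2.27 to 1.09), and the smallest adjusted p of the 43 was 0.89. Rsad2 had the highest, 0.30 ± 0.74 (SE). By limma-voom the split was 5 higher and 38 lower with a median of -0.13, and on log2(FPKM + 1) it was 7 higher and 36 lower with a median of -0.12. The receptor gene Ifnar1 was measured far more tightly, at 0.04 ± 0.05 (SE; 95% interval -0.07 to 0.14).

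Of the cell type lists at day 14, all of 5 NK cell, 4 alveolar type 1 and 4 heart muscle markers had lower fitted values in KO and all of 4 ciliated cell markers higher ones, with 2, 3, 3 and 3 at an unadjusted p under 0.05 and none called. All of 7 neutrophil markers were lower in KO as well and all of 3 red cell markers higher. Their medians were -0.21 and 0.52, with 0 genes at an unadjusted p under 0.05 by edgeR. NK cell markers summed to 39.1 to 58.4 CPM in KO libraries and 49.99 to 153.5 CPM in WT libraries, and their part in the values of the 43 genes was not tested.

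The sign of this contrast turned with single libraries. Without KO day 14 library 2 the median became -0.97 with 43 of 43 genes lower in KO, 6 of them with an unadjusted p under 0.05 (8.63% of all genes) and 0 called by edgeR. Without WT day 14 library 5 it became 0.64 with 43 of 43 higher. Leaving out any other KO library at day 14 gave 0.12 to 0.13. Without both high libraries it was -0.33, with 39 genes lower and 4 higher in KO, 0 called and 0 with an unadjusted p under 0.05. Without WT day 0 library 4 as well, which lowers the spread shared by all groups, it was -0.32, with 10 genes at an unadjusted p under 0.05 (8.42% of all genes), 0 called and a smallest adjusted p of 0.341 by edgeR. Outside the high libraries WT libraries 3 and 6 each stood above KO libraries 1, 3, 4 and 5 for 40 of 43 genes (22.6 and 18.9% of all genes), and WT library 1 was the lowest WT library for 40 genes (14.0% of all genes).

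At day 0, all 43 genes had lower fitted values in the 2 KO libraries than in the 4 WT libraries, against 49.7% of all genes, and none passed the test. edgeR called 0 of 43 (0.0256% of all genes), with 0 at an unadjusted p under 0.05 (6.74% of all genes), and DESeq2 and limma-voom also called 0, with 0 under 0.05. The median log2 fold change was -0.80 and the smallest adjusted p 0.848. Mx2 had the lowest value, with a mean of 4.11 ± 1.97 CPM in KO libraries and 15.7 ± 10.6 CPM in WT libraries (SD, n = 2 and 4) and a log2 fold change of -1.92 ± 1.58 (SE; 95% interval -5.01 to 1.16). Irf7 had -1.66 ± 1.48 and Ifi44 -1.65 ± 1.67 (SE), and the flattest, Tor3a, had -0.10 ± 0.37. Without WT day 0 library 4 the median was -0.33, with 39 of 43 genes lower. Without the 2 high day 14 libraries, which enter the shared spread, it was -0.79, with 18 genes at an unadjusted p under 0.05 (7.52% of all genes), 0 called and a smallest adjusted p of 0.587 by edgeR. Without all 3 high libraries it was -0.33, with 5 genes at an unadjusted p under 0.05 (6.31% of all genes), 0 called and a smallest adjusted p of 0.767 by edgeR. All of 6 plasmacytoid dendritic cell, 5 NK cell, 5 B cell and 6 T cell markers also had lower fitted values in KO at day 0. An unadjusted p under 0.05 was given to 5, 5, 2 and 1 of them, with none called. All of 4 fat and 5 alveolar type 2 markers had higher fitted values, 3 of each list with an unadjusted p under 0.05 and none called. The fat sum was high in KO library 2 alone, at 70.4 CPM. It was 21.9 CPM in KO library 1 and 16.2 to 22.5 CPM in WT libraries. Further lists ran 1 way with 0 genes at an unadjusted p under 0.05 by edgeR. All of 6 monocyte and 4 heart muscle markers were lower in KO. All of 7 alveolar macrophage, 4 ciliated cell and 3 red cell markers were higher. Plasmacytoid dendritic cell markers summed to 22.9 and 24.6 CPM in KO libraries and 37.9 to 42.1 CPM in WT libraries. NK cell markers summed to 55.1 and 26.02 CPM in KO libraries and 66.2 to 136.8 CPM in WT libraries. Their sum was lowest in KO library 2 and highest in WT library 4, the libraries at the ends of the day 0 order of the 43 genes. The monocyte sum had the same ends, at 49.2 and 132.9 CPM. At day 14 the NK cell sum was 41.7 CPM in KO library 2 and 77.3 CPM in WT library 5, the high libraries. The part of these cells in the values of the 43 genes was not tested.

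Between the days, all 43 genes had higher fitted values at day 14 than at day 0 in both genotypes, and none passed the test. In WT the median log2 fold change was 0.45, with 50.4% of all genes higher, and edgeR called 0 of 43 and 0.0% of all genes, with 0 of 43 at an unadjusted p under 0.05 (9.06% of all genes). Oas3 had the highest value in WT, 1.25 ± 0.95 (SE; 95% interval -0.61 to 3.11). In KO the median was 1.301, with 52.6% of all genes higher, and edgeR again called 0 of 43 and 0.0% of all genes, with 0 of 43 at an unadjusted p under 0.05 (9.05% of all genes). Isg15 had the highest value in KO, 2.83 ± 1.80 (SE, 95% interval -0.70 to 6.36). In KO, DESeq2 gave 1 of the 43 genes an unadjusted p under 0.05, against 9.55% of all genes. DESeq2 and limma-voom called 0 of 43 in either genotype.

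The day contrasts also followed the high libraries. Without WT day 14 library 5 the WT median was -0.19, with 38 genes lower and 5 higher at day 14, and without WT day 0 library 4 it was 0.87. Without KO day 14 library 2 the KO median was 0.30, with 39 genes higher and 4 lower. All 7 neutrophil markers had higher fitted values at day 14 in each genotype, and 7 in WT and 3 in KO had an unadjusted p under 0.05 (9.06 and 9.05% of all genes), with none called. Their sums were 51.6 to 598 CPM in KO at day 14 against 65.6 and 94.2 CPM in KO at day 0, and 136.7 to 539.5 CPM in WT at day 14 against 63.3 to 123 CPM in WT at day 0, so the KO range at day 14 enclosed both day 0 values. The sum was 51.6 CPM in KO day 14 library 2 and 359.8 CPM in WT day 14 library 5. The part of neutrophils in the day values of the 43 genes was not tested.

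The KO effect was not shown to differ between the days. The difference of the KO effects, day 14 minus day 0, had a median of 0.78 log2 units over the 43 genes, with 43 of 43 above 0 (51.1% of all genes). edgeR called 0 of 43 and 0.0% of all genes, with 0 of 43 at an unadjusted p under 0.05 (4.55% of all genes), and the smallest adjusted p was 0.988. Without KO day 14 library 2 the median was -0.18, and without WT day 14 library 5 it was 1.46. Without WT day 0 library 4 it was 0.31, and without KO day 0 library 2 it was 0.48. The contrasts share groups with each other, so their values are not independent.

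Of the pathway genes outside the 43, no gene of the receptor, sensor, further interferon-induced or interferon gamma lists passed the test in any of the 5 contrasts. At day 0, 45 of 45 further interferon-induced genes had lower fitted values in KO, with a median of -0.34, and 12 of 14 interferon gamma genes, with a median of -0.76, against 49.7% of all genes. At day 14, 20 of the 45 had higher fitted values in KO and 25 lower ones, with a median of -0.02, while 12 of the 14 had higher ones, with a median of 0.15 and 1 gene at an unadjusted p under 0.05.

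**Figure D4:**
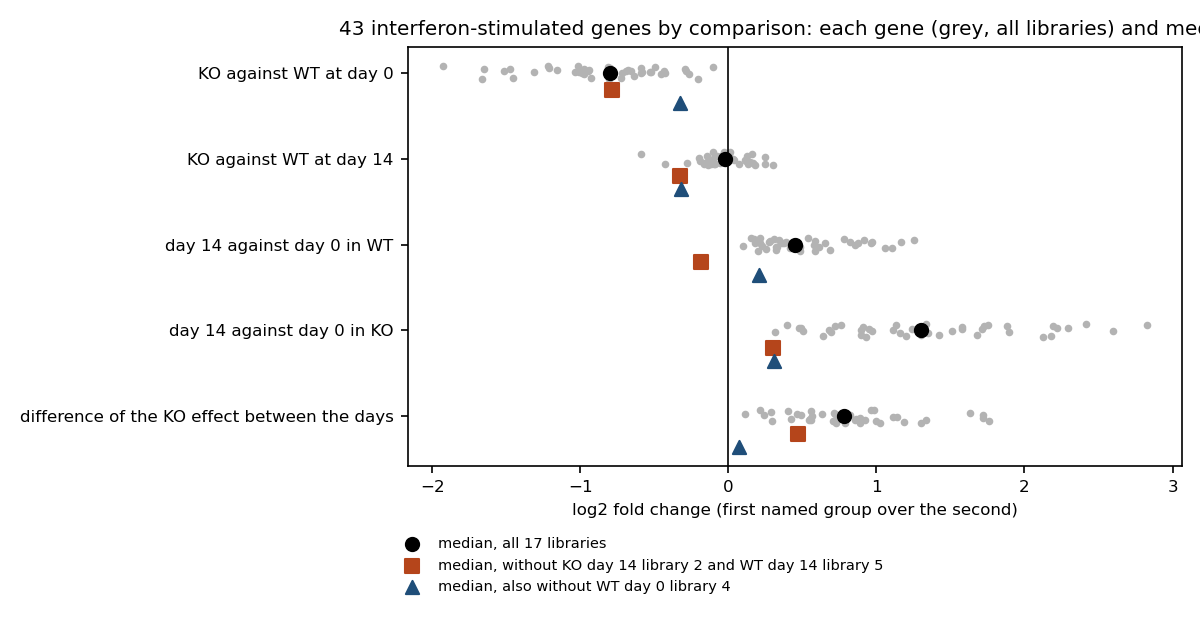
Log2 fold changes of the 43 genes (grey points, all 17 libraries) for the 5 contrasts, with medians over all libraries (circle), without the 2 high day 14 libraries (square) and also without WT day 0 library 4 (triangle). The WT day median is 0.45 over all libraries, -0.18 without the 2 high day 14 libraries and 0.21 without all 3, and the KO day median is 1.301, 0.30 and 0.31.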

How the data were processed

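RSEM expected counts, 1 file per library, and an FPKM table of all libraries were deposited by the authors. Per the submitters' processing notes, the build was mm10 and the tools STAR (2.5.3), RSEM (1.3.0) and limma (3.38.3); the annotation release and strand setting are not given in the sources used here. Values were not whole for 13.86 to 17.14% of genes in a library. The 43 genes, their role groups and the pathway and marker lists were chosen with earlier results of these data known. Genes were taken by symbol from the FPKM table and joined to the counts by gene ID; coordinates are those of GENCODE M21 on GRCm38.

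Expected counts were rounded to whole numbers. filterByExpr by group left 19557 genes, and TMM factors were 0.977 to 1.01. CPM are counts scaled by the library total times its TMM factor. One edgeR 4.0.16 quasi-likelihood model with all 4 groups (common biological coefficient of variation 0.152) gave 5 contrasts, with two-sided p-values adjusted by Benjamini-Hochberg over all genes tested and a threshold of 0.05. The 95% interval uses a normal quantile of the SE and covers the spread between libraries. The score uses log2 CPM with a prior count of 2. No library was a copy of another (chi-square per gene between libraries of a group 12.43 to 69.41).

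The genes named with every library's value were, in each of 8 role groups, the gene with the highest mean FPKM and the gene with the widest range of log2 CPM, and always Clic4, Isg15, Irf7, Ifit1, Ifit3, Ifnar1 and Ifnar2, besides 1 gene that is not reported here; Rsad2 and other single values were chosen after they were seen. Alternatives were DESeq2 1.42.0, its size factors, limma-voom (limma 3.58.1), no filter on low counts, log2(FPKM + 1) and log2(FPKM + 0.1) with a minimum of 1 FPKM in 2 libraries or none, 2 groups only, and leaving out each library. Leaving out the high libraries together was chosen after the data were seen. The code was tested on simulated data, and tables were handled in R 4.3.3 and pandas 2.3.3 and drawn with matplotlib 3.10.9.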

Additional observations from a re-analysis of the deposited data

Results flagged for a closer look

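Of 45 groups of libraries examined, for the score and the named genes in the KO day 14, WT day 14 and WT day 0 groups, 41 held a library far from the others of its group (the gap to the nearest library set against the range of the group); chance gives such a flag in about 1 group in 20. Some of the named genes were chosen for a wide range, so this count is a description and no test. Over all 43 genes the flag fell in 42 genes for KO at day 14, 41 for WT at day 14 and 28 for WT at day 0, against 6.78, 7.37 and 5.57% of all genes tested. The genes move together, so these flags repeat the same libraries and are not separate events. KO day 14 library 2 stood apart with a score of 2.11 and, in CPM, with Isg15 at 196.6, Irf7 at 316.9, Ddx58 at 232.9, Zbp1 at 103.1, Oas3 at 41.76, Oasl2 at 556.4 and Ifit1 at 274.9. It also stood apart for Ifit3 at 625.8, Mx2 at 86.51, Bst2 at 308.3, Parp9 at 167.1, Parp14 at 451.6, Ifi44 at 174.3 and Ifi27l2a at 239.8 CPM.

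WT day 14 library 5 stood apart with a score of 2.12 and, in CPM, with Isg15 at 162.0, Irf7 at 311.5, Ddx58 at 255.2, Zbp1 at 90.24, Oas3 at 67.93, Oasl2 at 586.9 and Ifit1 at 275.7. It also stood apart for Ifit3 at 619.7, Mx2 at 94.7, Bst2 at 227.0, Parp9 at 168.6, Parp14 at 421.1 and Ifi44 at 165.2 CPM. WT day 0 library 4 stood apart, in CPM, with Isg15 at 38.73, Irf7 at 130.9, Ddx58 at 140.8, Zbp1 at 29.2, Oas3 at 20.42, Oasl2 at 227.3 and Ifit1 at 84.98. It also stood apart for Ifit3 at 177.2, Bst2 at 101.0, Parp9 at 96.94, Ifi44 at 50.83 and Ifi27l2a at 169.0 CPM. No single genotype or day is common to these 3 libraries.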

How the results depend on the processing

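The count of the 43 genes called was 0 in every contrast under every alternative run for it, including each library left out; the fit with 2 groups only was run for 4 contrasts, as the difference between the days needs all 4 groups. The number of all genes called moved more. KO against WT at day 0 gave 5 genes, against 26 by DESeq2, 3 by limma-voom, 17 on log2(FPKM + 1) with no filter, 14 with 2 groups only, 3 without both high day 14 libraries and 2 without the 3 high libraries. KO against WT at day 14 gave 21, against 109 by DESeq2. Day 14 against day 0 in WT gave 0, against 3 with DESeq2 size factors, 113 by DESeq2, 1 by limma-voom, 5 with no filter and 55 without both high libraries. Day 14 against day 0 in KO gave 0, against 93 by DESeq2, 4 on log2(FPKM + 1), 4 on log2(FPKM + 0.1), 19 on log2(FPKM + 1) with no filter, 2 with 2 groups only, 19 without both high libraries and 19 without the 3. The difference between the days gave 0, against 9, 4, 3 and 7 by DESeq2, log2(FPKM + 1), log2(FPKM + 0.1) and log2(FPKM + 1) with no filter. The causes were not tested.

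The median log2 fold change in KO between the days was 1.301, against 0.30 without both high day 14 libraries and 0.31 without the 3. By limma-voom it was 0.79, and in WT 0.23 against 0.45, with 41 genes higher and 2 lower at day 14. With each library left out in turn, the median ran from -1.1 to -0.33 for KO against WT at day 0 (2 to 7 genes called in all), -0.97 to 0.64 at day 14 (15 to 27), -0.19 to 0.87 between the days in WT (0 to 52), 0.30 to 1.7 in KO (0 to 12) and -0.18 to 1.46 for the difference (0 to 1). Of the values of single genes under the alternatives, 42 changed sign and moved by at least the SE of the edgeR fit to all libraries. The other 2236 did not, and a value that kept its sign is among them however far it moved. No paired analysis was possible because the replicate numbers were given in accession order and pair no libraries. With 2 KO libraries at day 0, the intervals of that group are wide.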
